A study of Mus musculus with 6 samples.

Results

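The genes described here are 34 genes of T cells: the chains of the T cell receptor complex, the coreceptors, the kinases and adaptors that act next to the receptor, surface receptors, lineage transcription factors and genes of regulatory and activated T cells. They were chosen by name, and each was read from the probe sets that the array's annotation assigns to that gene alone. Of the 34, 32 had such a probe set, among 18193 genes measured in all, and they were covered by 68 probe sets. No probe set used here names Lck or Tcf7 alone, so both were not analysed here. For a gene with several probe sets, the one with the highest mean over the 6 arrays stands for the gene.

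The study measured RNA of whole lungs from mice at postnatal day 15, on 1 Affymetrix array per sample. The control group holds 3 samples whose genotype label gives wildtype and control. The other group holds 3 samples labelled Foxa2-/- and called Foxa2-null here. Foxa2 encodes a forkhead factor that lung epithelial cells make. The strain label is the same in all 6 samples. It gives SPC(+)Cre(-) and doxycycline (Dox) from embryonic day 6.5 to 12.5, so by label the controls were exposed to Dox too. SPC is surfactant protein C, whose promoter directs transgenes to lung epithelial cells and not to T cells. A label of Cre(-) in the null samples conflicts with their genotype label. The question set by the submitters concerns Foxa2 in Th2 inflammation, the type of immunity that T helper cells and innate lymphoid cells drive through interleukins 4, 5 and 13. The lungs were of littermates, but nothing states that every array had its own animal. The p-values below thus cover only the spread between these 6 samples, part of which may be technical.

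A T cell recognises antigen with a receptor whose variable chains are held at the surface by the CD3 chains and the zeta chain. Binding lets the kinase Lck, carried by CD4 or CD8, phosphorylate those chains, which recruits Zap70 and then the adaptor Lat. Immature T cells form in the thymus, pass a stage at which they carry both CD4 and CD8, and leave as cells with one or the other. Regulatory T cells, marked by Foxp3, restrain the rest. In whole-lung RNA a level of such a gene reflects how many cells make it and how much each makes, and fewer cells cannot be told apart from less RNA per cell.

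The promoters of 6 of these genes are shown: those of the 3 linked CD3 genes, added after their values were seen because they had the same order of controls, and those of Cd8a, Il2ra and Foxp3, because these had the smallest unadjusted p-values. The sequences are from RefSeq (build GRCm38.p6), 250 bases ending at the base before the first listed start of transcription, 5′ to 3′ on the gene's strand. Capitals mark 6 short motifs, searched on both strands: TATAAA as the core promoter box, TGTGGT for RUNX factors, AGATAA for GATA factors, AGGAAG for ETS factors, CTTTGA for TCF/LEF factors and CAGCTG as an E-box. The matches shown do not overlap one another.
Cd3d: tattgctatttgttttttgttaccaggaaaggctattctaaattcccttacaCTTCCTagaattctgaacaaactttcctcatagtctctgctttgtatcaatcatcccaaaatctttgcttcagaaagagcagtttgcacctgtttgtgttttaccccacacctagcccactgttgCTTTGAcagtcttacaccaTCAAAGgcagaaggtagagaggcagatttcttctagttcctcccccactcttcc
Cd3g: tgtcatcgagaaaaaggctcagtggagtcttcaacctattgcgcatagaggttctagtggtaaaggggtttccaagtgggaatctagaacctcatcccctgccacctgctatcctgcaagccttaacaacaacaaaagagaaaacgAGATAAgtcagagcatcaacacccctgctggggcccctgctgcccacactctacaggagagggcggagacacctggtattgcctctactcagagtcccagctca
Cd3e: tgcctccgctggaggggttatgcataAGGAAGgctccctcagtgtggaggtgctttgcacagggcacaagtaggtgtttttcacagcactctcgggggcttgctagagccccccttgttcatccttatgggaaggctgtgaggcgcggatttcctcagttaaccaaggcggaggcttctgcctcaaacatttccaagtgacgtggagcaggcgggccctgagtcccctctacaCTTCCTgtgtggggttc
Cd8a: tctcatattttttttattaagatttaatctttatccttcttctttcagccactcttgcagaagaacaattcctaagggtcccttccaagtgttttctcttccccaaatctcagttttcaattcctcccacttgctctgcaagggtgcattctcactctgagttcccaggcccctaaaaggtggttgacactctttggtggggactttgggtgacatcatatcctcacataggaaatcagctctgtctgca
Il2ra: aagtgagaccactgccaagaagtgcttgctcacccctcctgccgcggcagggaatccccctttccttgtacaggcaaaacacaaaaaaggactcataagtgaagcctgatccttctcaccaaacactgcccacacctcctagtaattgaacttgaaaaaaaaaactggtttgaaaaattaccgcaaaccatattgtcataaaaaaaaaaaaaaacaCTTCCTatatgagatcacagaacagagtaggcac
Foxp3: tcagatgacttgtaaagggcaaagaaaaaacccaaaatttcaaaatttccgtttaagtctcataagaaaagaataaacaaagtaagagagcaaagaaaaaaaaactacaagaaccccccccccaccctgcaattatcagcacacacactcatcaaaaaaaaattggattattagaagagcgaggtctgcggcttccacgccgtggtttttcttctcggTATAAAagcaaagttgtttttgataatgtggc

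Cd3d lies at chr9:44981536-44981785 (plus strand), Cd3g at chr9:44980432-44980681 (minus strand) and Cd3e at chr9:45009612-45009861 (minus strand), these being the windows shown. The starts of Cd3g and Cd3d face away from each other 1355 bases apart, and that of Cd3e is 27825 bases from that of Cd3d. The windows of Cd8a (chr6:71373177-71373426), Il2ra (chr2:11642542-11642791) and Foxp3 (chrX:7579426-7579675) are all on the plus strand. Cd3d held 2 TCF/LEF matches and 1 ETS match, Cd3e 2 ETS matches, Cd3g 1 GATA match, Il2ra 1 ETS match and Foxp3 the core promoter box starting at -32, while Cd8a held none of these letters. Among the 23 listed genes found in the promoter table, 11 held the ETS letters, which 29.2% of 27025 promoter windows of the same length hold. TCF/LEF letters were in 4 of the 23 (14% of all windows), core promoter box and RUNX letters in 2 each (13% and 14.2%), and GATA and E-box letters in 1 each (10.3% and 12.8%). These are matches of letters and no measure of binding.

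Foxa2 itself checks the labels. It read 10.28, 10.56 and 10.28 on the log2 scale in control replicates 1 to 3 and 7.72, 5.38 and 5.13 in null replicates 1 to 3, so each array labelled null was below every control (difference -4.30, SE 0.66, limma adjusted p = 0.0599). Null replicate 1 stood apart: its Foxa2 signal was the highest of the null arrays, and its correlation with each other array over all probe sets was 0.9723 to 0.9783, against 0.9792 to 0.9921 for all other pairs. Its estimated array weight was 0.225, against 0.813 to 1.758 for the others. Without it Foxa2 differed by -5.12 (SE 0.14, limma adjusted p = 0.00227), 249 genes passed in place of 104, and still none of the T cell genes did, their median difference being 1.00. The sources used here do not place this probe set inside or outside the deletion. The arrays had medians of 7.85 to 7.91, and 3 arrays a group limit the precision of every value. A measure of RNA integrity, the log2 signal of Gapdh at its 3′ end less that at its 5′ end, was 1.06 to 1.23 over the controls and 0.91 to 0.97 over the null arrays. The same measure for Actb overlapped, at 0.46 to 0.65 over the controls and 0.43 to 0.47 over the null arrays. Their part in the T cell gene values was not tested. Markers of the labelled tissue were bright on every array: Sftpc, a surfactant protein of alveolar type II cells, had a log2 mean of 14.40 ± 0.04 in the controls and of 14.38 ± 0.04 in the null group (SD, n = 3 each).

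None of the 32 T cell genes passed the test between Foxa2-null and control lungs, although 31 of them had a higher mean in the null group. The limma adjusted p lay between 0.281 (Foxp3) and 0.987 (Lef1), with 0 of 32 under 0.05, beside 104 of 18193 genes (0.572%), of which 0.473% of all genes were higher and 0.0989% lower. At an unadjusted p under 0.05 there were 6 of the 32 (18.8%), beside 12.3% of all genes: Cd4, Cd8a, Cd8b1, Thy1, Foxp3 and Il2ra. The median difference of the T cell genes was 0.80 log2 units, beside 0.01 over all genes. Every null array lay above all controls for 5 genes (15.6%), namely Cd4, Cd8a, Thy1, Foxp3 and Il2ra, beside 10.8% of all genes, and every one below for none, beside 8.73% of all genes. A higher null mean was seen in 96.9% of the T cell genes and in 50.8% of all genes. These 32 values are not independent, since they come from the same 6 arrays and many follow the same order of arrays.

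Single arrays differed as much as the groups did. Null replicate 2 was the highest of all 6 arrays for 31 of the 32 genes (14.2% of all genes have their highest value there). Control replicate 3 was the lowest for 26 (17.8% of all genes are lowest there). Among the controls, replicate 2 was the highest for 31 genes. As a median over the 32 genes, signal relative to the control mean was 0.10, 0.63 and -0.76 in control replicates 1 to 3 and 0.25, 1.38 and 0.48 in null replicates 1 to 3. Control replicate 2 therefore sat above null replicates 1 and 3 in this median, and only 10 of the 32 genes were higher in null replicate 1 than in control replicate 2, with the same count for null replicate 3. Controls spread by a median of 1.32 log2 units per T cell gene between their highest and lowest array, and for 28 genes this range was larger than the difference between the groups. The median SD among controls was 0.68 for the T cell genes and 0.15 over all genes, and among null lungs 0.65 and 0.21.

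**Figure D1:**
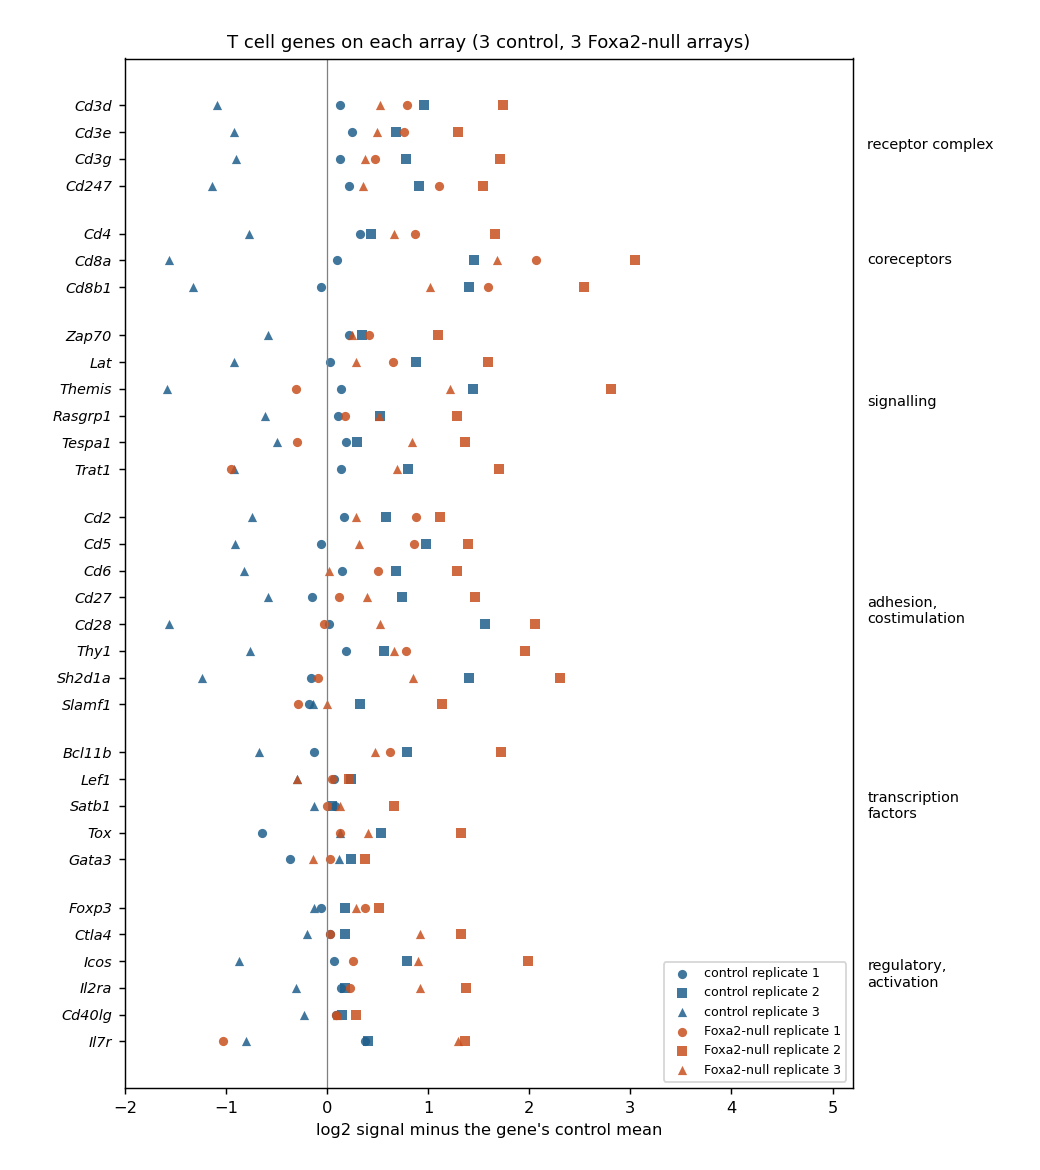
Log2 signal of each of the 32 T cell genes on each array minus the mean of the 3 controls of that gene, with genes grouped by role, controls in blue and Foxa2-null lungs in orange, 1 symbol per replicate. Null replicate 2 (orange squares) is rightmost for 31 of the 32 genes, and control replicate 3 (blue triangles) is leftmost for 26.

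The size of the difference depended most on control replicate 3 and null replicate 2. These were the lowest control for 29 of the 32 genes and the highest null array for all 32. Leaving out either therefore had to lower the difference of those genes. Without control replicate 3 the median over the T cell genes was 0.39, and without null replicate 2 it was 0.40, against 0.80 with all arrays. In these 2 fits 31 and 28 of the 32 genes had a higher null mean. Leaving out any of the other 4 arrays gave medians of 0.83 to 1.04. Calls among other genes also depended on single arrays: with null replicate 3, control replicate 1 or control replicate 2 left out, limma passed 0 of 18193 genes, with 2111, 1654 and 1801 at an unadjusted p under 0.05. Control replicate 2 and null replicates 2 and 3 share the first number in their sample titles, whose meaning is not given. Within these 3 arrays, 1 control and 2 null, the median was 0.29, and 27 of the 32 genes had a higher null mean. It was 0.52 when that number entered as a random block.

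**Figure D2:**
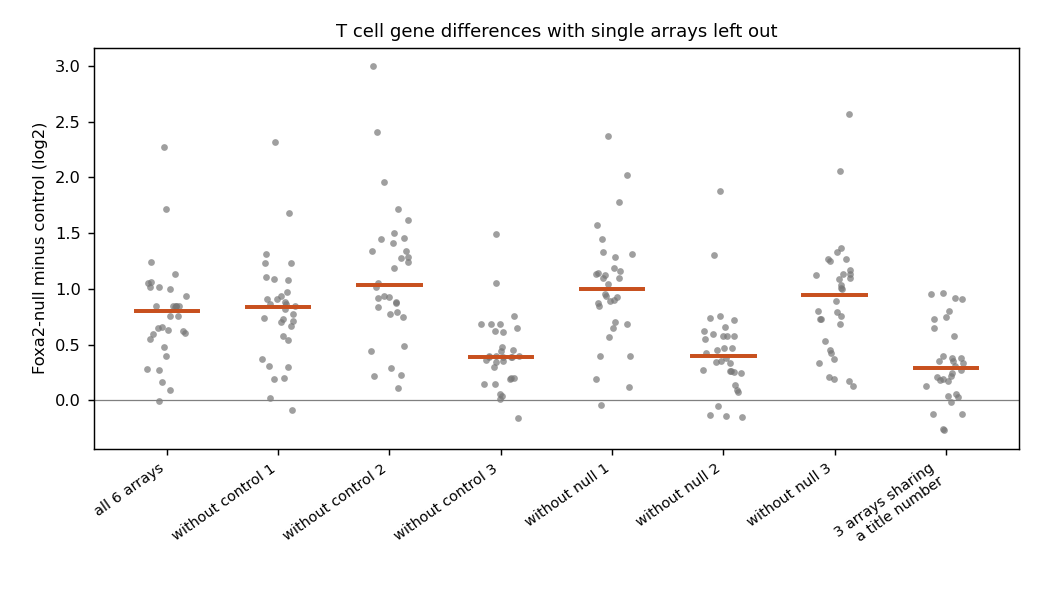
Difference of each T cell gene between Foxa2-null and control lungs (log2, 1 point per gene) with all 6 arrays, with each array left out in turn, and within the 3 arrays that share a title number; orange bars are medians over the 32 genes. The median is 0.80 with all arrays, 0.39 without control replicate 3, 0.40 without null replicate 2 and 0.29 within the shared number.

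The 4 chains that carry the receptor's signalling motifs followed the same pattern. Cd3e, the CD3 epsilon chain, read 11.15, 11.58 and 9.98 in control replicates 1 to 3 and 11.66, 12.20 and 11.39 in null replicates 1 to 3. Null replicate 3 was below control replicate 2, so the groups overlapped (difference 0.85, SE 0.43, limma adjusted p = 0.494). Cd3d, the delta chain, read 9.78, 10.61 and 8.56 in controls and 10.44, 11.39 and 10.17 in null lungs, with a difference of 1.02 (SE 0.56). For Cd3d, null replicates 1 and 3 were both below control replicate 2. Cd3g, the gamma chain, read 9.68, 10.33 and 8.65 against 10.02, 11.26 and 9.93, a difference of 0.85 (SE 0.52), again with only null replicate 2 above all controls. Cd247, the zeta chain, read 7.59, 8.28 and 6.23 against 8.48, 8.91 and 7.73, a difference of 1.00 (SE 0.55), and only null replicate 3 fell within the controls. Adjusted p-values of the last 3 were 0.530, 0.575 and 0.533 (limma). Within the shared title number the 4 differences were small, 0.21 for Cd3e, 0.17 for Cd3d, 0.27 for Cd3g and 0.03 for Cd247. Of the 3 dimmer probe sets of Cd247, 2 gave differences of -0.09 and -0.05 and the third one 0.56.

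The coreceptors had the largest differences of the 6 groups by role, with a median of 1.72. Cd8a, the CD8 alpha chain, had the largest difference of all 32 genes. It read 8.38, 9.73 and 6.72 in controls and 10.35, 11.33 and 9.96 in null lungs, so every null array was above all controls, the nearest pair being null replicate 3 and control replicate 2. The means were 8.28 ± 1.51 and 10.55 ± 0.71 (log2, SD, n = 3 each), a ratio of 4.83, with a difference of 2.27 (SE 0.76, 95% interval 0.45 to 4.09, limma adjusted p = 0.297). Its other 4 probe sets gave 1.17 to 2.28. None of the 68 probe sets of the T cell genes passed over all probe sets (limma), beside 0.0999% of all. The controls alone spanned more than the difference between the groups. This difference was 1.49 without control replicate 3 and 0.91 within the shared title number. Cd8b1, the CD8 beta chain, which is made by fewer kinds of cell than the alpha chain, read 7.02, 8.48 and 5.75 against 8.67, 9.62 and 8.10. Null replicate 3 fell below control replicate 2, and the difference was 1.72 (SE 0.71, limma adjusted p = 0.404), 1.05 without control replicate 3 and 0.38 within the shared number. Cd4, the coreceptor of helper T cells, which some macrophages and dendritic cells also carry, read 8.58, 8.68 and 7.48 against 9.12, 9.91 and 8.91. Each null array was above all controls, with a difference of 1.06 (SE 0.40, limma adjusted p = 0.349) and 0.73 within the shared number.

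Among the 6 genes that act next to the receptor, all had a higher null mean, with a median difference of 0.65, and in none were the groups separate. Zap70, the kinase that binds the phosphorylated chains, read 9.15, 9.28 and 8.35 in controls and 9.35, 10.03 and 9.18 in null lungs (difference 0.59, SE 0.32); its probe set is of a kind that may bind related transcripts, and its other 2 probe sets gave 0.47 and 0.20. Lat, the adaptor that Zap70 phosphorylates, differed by 0.85 (SE 0.52) and Rasgrp1, which activates Ras downstream of Lat, by 0.66 (SE 0.38). Themis, needed for selection in the thymus, had the largest SE of the 32 genes. It read 7.26, 8.56 and 5.54 against 6.81, 9.93 and 8.34, and null replicate 1 was below 2 of the 3 controls (difference 1.24, SE 0.99). Tespa1, another protein of thymocyte signalling, differed by 0.63 (SE 0.44). Trat1, an adaptor of the receptor complex, read 6.06, 6.72 and 5.0 against 4.97, 7.62 and 6.61, so that null replicate 1 was the lowest array of all and null replicate 2 the highest (difference 0.48, SE 0.73). For these 6 genes limma gave adjusted p-values between 0.528 and 0.824.

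The 8 adhesion and costimulation genes all had a higher null mean, with a median difference of 0.80. Thy1, a surface glycoprotein of T cells that fibroblasts and innate lymphoid cells also carry, was the only one of the 8 with separate groups. It read 9.04, 9.41 and 8.09 in controls and 9.63, 10.81 and 9.51 in null lungs, with null replicate 3 just above control replicate 2 (difference 1.13, SE 0.46, limma adjusted p = 0.388). Cd2, an adhesion receptor, differed by 0.76 (SE 0.37), and Cd5 and Cd6, related scavenger-type receptors that tune receptor signals, by 0.85 (SE 0.50) and 0.60 (SE 0.46). Within the shared title number Cd5 and Cd6 were at -0.12 and -0.02. Cd27, a costimulatory receptor of the TNF receptor family, differed by 0.65 (SE 0.45). Cd28, the main costimulatory receptor, read 7.49, 9.03 and 5.91 against 7.44, 9.53 and 7.99. Its controls alone covered 9.03 to 5.91, and the difference of 0.85 (SE 0.86) turned to -0.26 within the shared number. Sh2d1a, the adaptor SAP, differed by 1.02 (SE 0.82) and Slamf1, a receptor that signals through it, by 0.28 (SE 0.38). For these 8 genes limma gave adjusted p-values between 0.388 and 0.798.

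Of the 5 lineage transcription factors measured, 4 had a higher null mean, and Bcl11b had the largest difference. Bcl11b, which commits progenitors to the T cell lineage, read 9.53, 10.45 and 8.99 in controls and 10.28, 11.38 and 10.13 in null lungs (difference 0.94, SE 0.46, limma adjusted p = 0.484). Its other 3 probe sets gave 0.67 to 1.11. Lef1, a partner of beta-catenin in thymocytes and also in lung mesenchyme, was nearly level at 11.71, 11.88 and 11.34 against 11.69, 11.86 and 11.34 (difference -0.01, SE 0.20, 95% interval -0.48 to 0.46). Gata3, the factor of Th2 cells and group 2 innate lymphoid cells, read 7.83, 8.44 and 8.32 against 8.23, 8.58 and 8.06, a difference of 0.09 (SE 0.21, 95% interval -0.42 to 0.60), with overlapping groups. Satb1, a chromatin organiser of thymocytes, differed by 0.27 (SE 0.19), with null replicate 2 at 11.71 and all other arrays between 10.92 and 11.18. Tox, needed for the CD4 lineage, differed by 0.62 (SE 0.40), and it was control replicate 1, not replicate 3, that was lowest for Tox and for Gata3.

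Of the 6 genes of regulatory and activated T cells all had a higher null mean, with a median difference of 0.65. The controls of Foxp3, Ctla4 and Il2ra lay closer together (SD 0.16, 0.19 and 0.27, n = 3 each) than those of Cd3e (SD 0.83). Foxp3, the factor of regulatory T cells, read 6.48, 6.72 and 6.41 in controls and 6.92, 7.05 and 6.83 in null lungs. All 3 null arrays were above all controls, and the difference of 0.40 (SE 0.13, 95% interval 0.09 to 0.71) had the smallest p of the 32 genes (0.0196, limma adjusted p = 0.281). Il2ra, the high-affinity chain of the interleukin 2 receptor, read 6.74, 6.78 and 6.29 against 6.83, 7.97 and 7.52. Null replicate 1 was above control replicate 2 by little, and the difference was 0.84 (SE 0.30, limma adjusted p = 0.331). Ctla4, an inhibitory receptor that regulatory T cells carry, read 7.24, 7.39 and 7.01 against 7.24, 8.54 and 8.13, so null replicate 1 was within the controls and the other null arrays above them (difference 0.76, SE 0.32, limma adjusted p = 0.418). Icos, a costimulator of helper T cells, differed by 1.05 (SE 0.55). Cd40lg, the ligand by which helper T cells stimulate B cells, was dim at 5.25 to 5.77 on all arrays (difference 0.16, SE 0.14); its control mean was the only one of the 32 below the 25th percentile of an array (5.69 to 5.78). Il7r, the receptor for interleukin 7 on naive and memory T cells and innate lymphoid cells, read 9.72, 9.75 and 8.54 against 8.31, 10.70 and 10.64. Null replicate 1 was lower than any control and null replicates 2 and 3 higher than all of them (difference 0.55, SE 0.70). Without null replicate 1 Il7r differed by 1.33, and by 0.14 to 0.17 without null replicate 2, null replicate 3 or control replicate 3. Within the shared title number some differences were larger than with all arrays: Il7r 0.92, Ctla4 0.95, Il2ra 0.96 and, of the signalling genes, Tespa1 0.80. With 1 control among those arrays, no spread between controls enters these values, so only their size is given.

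**Figure D3:**
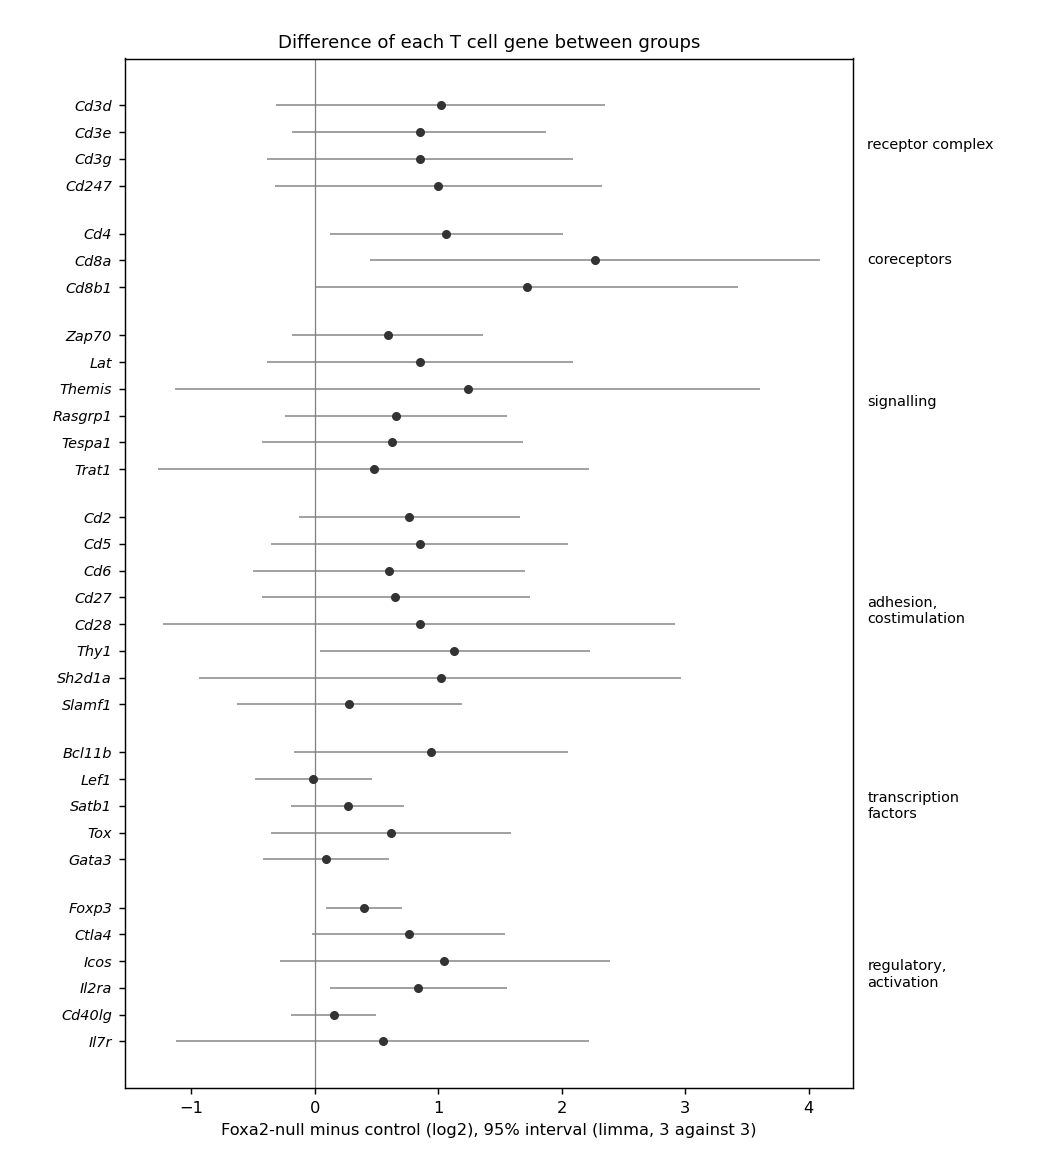
Difference between Foxa2-null and control lungs for each of the 32 T cell genes (log2, points) with 95% intervals from limma (bars), 3 arrays a group, genes grouped by role. The intervals of 26 genes include 0, Cd8a has the largest difference (2.27) and Lef1 is at -0.01; no adjusted p is under 0.05.

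Within the null group, replicates 1 and 3 did not keep 1 order. In 17 genes null replicate 1 was higher than null replicate 3, and in 15 it was lower. All 4 chains of the receptor complex, all 3 coreceptors, Zap70, Lat, Cd2, Cd5, Cd6, Thy1, Bcl11b, Lef1, Gata3 and Foxp3 were of the first kind. Of the 6 genes of the regulatory and activation group, 5 were of the second kind, with Il7r at 8.31 in null replicate 1 and 10.64 in null replicate 3. Themis (6.81 and 8.34), Trat1 (4.97 and 6.61) and Sh2d1a (7.22 and 8.16) showed the same order. This is a description of 2 arrays, which were chosen after their values were seen, and it was not tested.

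To read the other genes against the amount of receptor complex, the mean of the 4 CD3 chains on each array was subtracted from each gene's value, a step chosen after the data were seen. On this relative scale Cd8a read -1.17, -0.47 and -1.64 in control replicates 1 to 3 and 0.20, 0.39 and 0.15 in null replicates 1 to 3. The null arrays lay close together and above all controls, with a relative difference of 1.34 (exact permutation test over samples, two-sided, p = 0.10, the smallest that 3 against 3 can give). Cd8b1 read -2.53, -1.72 and -2.61 against -1.48, -1.32 and -1.70, also with separate groups (relative difference 0.79, exact permutation p = 0.10). Cd4 did not separate, at -0.96, -1.52 and -0.87 against -1.03, -1.03 and -0.90 (relative difference 0.13, exact permutation p = 0.90). Of the 28 T cell genes other than the CD3 chains, Cd8a and Cd8b1 were above all controls, where 0.214% of all genes are on this scale, and Cd6 and Lef1 were below all of them, where 7.13% of all genes are. The median relative difference of the 28 was -0.22, and of all genes -0.92, which reflects the higher CD3 mean of the null group. The same shift lowers the share of all genes above the controls, which was 10.8% without the subtraction. The share of 0.214% is thus set in part by the scale itself. Over these 28 comparisons no p could pass an adjustment.

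**Figure D4:**
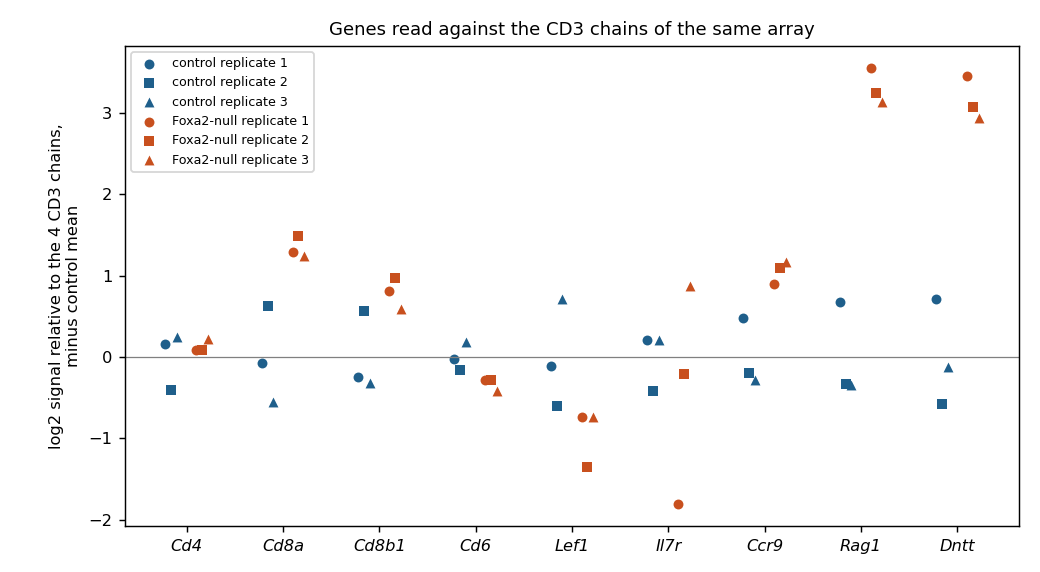
Log2 signal of 9 genes minus the mean of the 4 CD3 chains on the same array, drawn relative to the control mean of each gene; controls in blue, Foxa2-null lungs in orange, 1 symbol per replicate. The null arrays of Cd8a, Cd8b1, Ccr9, Rag1 and Dntt lie above all controls, those of Cd6 and Lef1 below, and those of Cd4 and Il7r overlap them.

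Other genes of T cell signalling and subsets were read from lists, whose counts stand beside 0.473% of all genes called higher, 0.0989% called lower, 10.8% above all controls and 8.73% below. Of 27 measured genes of receptor signalling none passed, 21 had a higher null mean, 8 lay above all controls and 1 (Fyn) below, and the median difference was 0.36. The smallest p-values there were those of Sla, an adaptor that dampens receptor levels (difference 1.15, SE 0.21, limma adjusted p = 0.0796), and Malt1, a protease of the pathway to NF-kappaB (1.26, SE 0.24, limma adjusted p = 0.0928), which are made in other leukocytes too. Of 25 genes of helper subsets and effectors 2 rose and none fell, while 8 lay above all controls and none below. Their median difference was 0.78, and 12 had dim control means. Both that rose are TNF receptor family members that activated T cells carry, and whole-lung RNA does not show which cells made them. Relative to the CD3 chains, Tnfrsf9 was above all controls (2.46, exact permutation p = 0.10) and Tnfrsf18 overlapped them (0.33, exact permutation p = 0.60). On the mean of its probe sets Tnfrsf9 differed by 1.86 (limma adjusted p = 0.0315), less than by its brightest probe set, given next. Tnfrsf9 had log2 means of 6.25 ± 0.07 for controls and 9.64 ± 0.64 for null lungs (SD, n = 3 each), a difference of 3.39 (limma adjusted p = 0.0198), and Tnfrsf18 8.12 ± 0.15 and 9.38 ± 0.21 (difference 1.26, limma adjusted p = 0.036). Their control SDs were below those of the CD3 chains. Neither passed on leaving out control replicate 3, where 19 of 18193 genes did (limma adjusted p = 0.0647 and 0.0782). Tnfrsf18 also failed without null replicate 2, where 7 genes passed, and with cyclic loess normalization. The other fits with 1 array left out in which both failed passed no gene at all, so they say nothing about either gene. Within the shared title number the differences were 3.55 and 1.38. None of 16 genes of naive and circulating lymphocytes passed (median 0.43), and 5 lay above all controls and 1 below. The smallest p-values there were of Ikzf1, a lymphoid transcription factor (0.86, limma adjusted p = 0.221), and Ccr9 (1.99, limma adjusted p = 0.228). Ccr9 is a chemokine receptor of thymocytes and gut-homing T cells. Only 3 genes of the receptor's own variable chains had a probe set of their own, all with dim control means. None passed the test, and 2 had a higher null mean. Of these, Trbv13-2 differed by 1.08 (limma adjusted p = 0.464) and Tcra by 0.18 (limma adjusted p = 0.613).

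Markers of immature thymocytes stood beside these values, and 2 of their 11 genes rose. Dntt, which adds bases at receptor gene joints, read 7.69, 7.05 and 5.67 in controls and 11.03, 11.44 and 10.17 in null lungs (difference 4.08, SE 0.56, limma adjusted p = 0.0454). Arpp21 rose from a dim mean of 4.31 to 6.31 (difference 2.00, limma adjusted p = 0.0198). The call of Dntt was lost on leaving out null replicate 1 (limma adjusted p = 0.0679), null replicate 2 or control replicate 3. It was also lost with cyclic loess and with the probe set of largest variance. That of Arpp21 was lost on leaving out control replicate 3 (limma adjusted p = 0.0647) and with both other choices of probe set. Both calls were also absent from the fits with 1 array left out that passed none of the 18193 genes. Such fits say nothing about a single gene. Within the shared title number Dntt differed by 3.76 and Arpp21 by 2.19. Rag1, the recombinase of receptor genes in developing T and B cells, read 7.28, 6.93 and 5.07 against 10.76, 11.24 and 9.99 (difference 4.24, limma adjusted p = 0.0534). Relative to the CD3 chains, Rag1 and Dntt were above all controls, with relative differences of 3.31 and 3.15. Ccr9, from the list of naive and circulating lymphocytes, was too, at 1.05 (exact permutation p = 0.10 each). Rag2, Ptcra and Arpp21 overlapped the controls on this scale, at 0.07, 0.80 and 1.07 (exact permutation p = 0.90, 0.30 and 0.30). Over the list, 8 of 11 had a higher null mean, 7 lay above all controls and 2 below (10.8% and 8.73% of all genes). The 7 include Themis2 and Aqp11 (differences 0.71 and 0.73), and it was not tested whether thymocytes made their RNA. In the list 3 genes had dim control means, and its mean level was 7.25 to 7.56 over the controls and 8.36 to 9.12 over the null arrays. Its 2 brightest genes in controls, Tcf12 and Cd1d1, which many cells make, differed by -0.26 and -0.31. The part of thymocytes in the T cell gene values was not tested.

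Thymic epithelium markers were read for the same reason. None of the 8 passed. A higher null mean was seen in 7 (50.8% of all genes), and 4 lay above all controls (10.8% of all genes). Mean levels were 7.32 to 7.38 over the controls and 7.77 to 8.83 over the null arrays, highest in null replicate 2. Foxn1, the factor that defines these cells, read 5.63 to 5.94 on all 6 arrays, near the 25th percentile of an array (5.69 to 5.78). At so dim a signal, level values do not show whether its RNA differed. Prss16, a protease of cortical thymic epithelium, read 5.60, 5.73 and 5.48 against 5.60, 9.16 and 6.90, and Ccl25, the ligand of Ccr9, 8.57, 8.67 and 8.51 against 8.41, 10.60 and 9.24. Both were high in null replicate 2, the array with the most T cell signal, and at the control level in null replicate 1. The 4 genes above all controls, Tbata, Psmb11, Aire and Cd83, were so in null replicate 1 too. There Tbata read 7.58 against 5.37 to 6.66 in the controls, and Psmb11 5.87 against 4.86 to 5.06. Aire read 6.83 there against 6.34 to 6.56, and Cd83 11.67 against 10.72 to 11.40. Tbata differed by 2.16 and Psmb11 by 0.71 (limma adjusted p = 0.21 and 0.196). The brightest of the list, Cd83 and Ly75, which dendritic cells also make, differed by 0.71 and 0.51. Whether thymic tissue contributed to the T cell gene values was not tested.

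Natural killer cell genes were read in the same way, and none of 9 passed. Their mean level was 6.99, 8.69 and 5.84 in control replicates 1 to 3 and 6.63, 9.27 and 8.15 in null replicates 1 to 3. Control replicate 2 and null replicate 2 were high and control replicate 3 low, as for the T cell genes, but null replicate 1 was below control replicate 1. Gzma, a granule protease of natural killer and cytotoxic T cells, read 9.44, 12.42 and 6.18 against 9.04, 12.86 and 11.41. Ncr1, a receptor of these cells, differed by 1.09 (limma adjusted p = 0.471), and Prf1, the bright perforin gene, by -0.17 (limma adjusted p = 0.59). None of 9 B cell genes passed or had separate groups, with mean levels of 8.70 to 9.36 over the controls and 8.93 to 9.56 over the null arrays. Cd22 and Fcrla differed by 0.67 and 0.60, and the brightest, Ebf1 and Cd79b, by -0.19 and 0.37.

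Markers of group 2 innate lymphoid cells include Gata3, Il7r and Icos, which are also among the T cell genes. None of 11 passed; the median difference was 0.55 and the mean level 7.28 to 7.75 over the controls and 7.51 to 8.63 over the null arrays. Il13 differed by 1.27 and Klrg1 by 1.73 (limma adjusted p = 0.234 and 0.37), and the bright Rora and Hlf by -0.58 and -0.47. Of 8 genes of dendritic cells and macrophages, some of which carry Cd4, 2 rose: Itgax by 1.94 and Cd68 by 1.45 (limma adjusted p = 0.036 and 0.0198). Both were still called on leaving out null replicate 1. Neither was on leaving out control replicate 3, where 19 of 18193 genes passed, or null replicate 2, where 7 did. The other fits with 1 array left out passed no gene at all, so they say nothing about either gene. Within the shared title number Itgax differed by 1.64 and Cd68 by 1.60. All 8 had a higher null mean and 6 lay above all controls (10.8% of all genes), with mean levels of 9.29 to 9.73 over the controls and 10.26 to 10.71 over the null arrays; the bright Csf1r and Mrc1 differed by 0.33 and 0.80. Their part in the Cd4 value was not tested. Lung epithelium markers had a median difference of 0.02 over 8 genes and those of endothelium and mesenchyme -0.06 over 6, and none passed. Ager, Scgb1a1 and Sftpa1 differed by -0.16, -0.07 and 0.32, and Cldn5, Cdh5, Col3a1 and Col1a1 by -0.25, -0.13, -0.06 and -0.01.

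**Figure D5:**
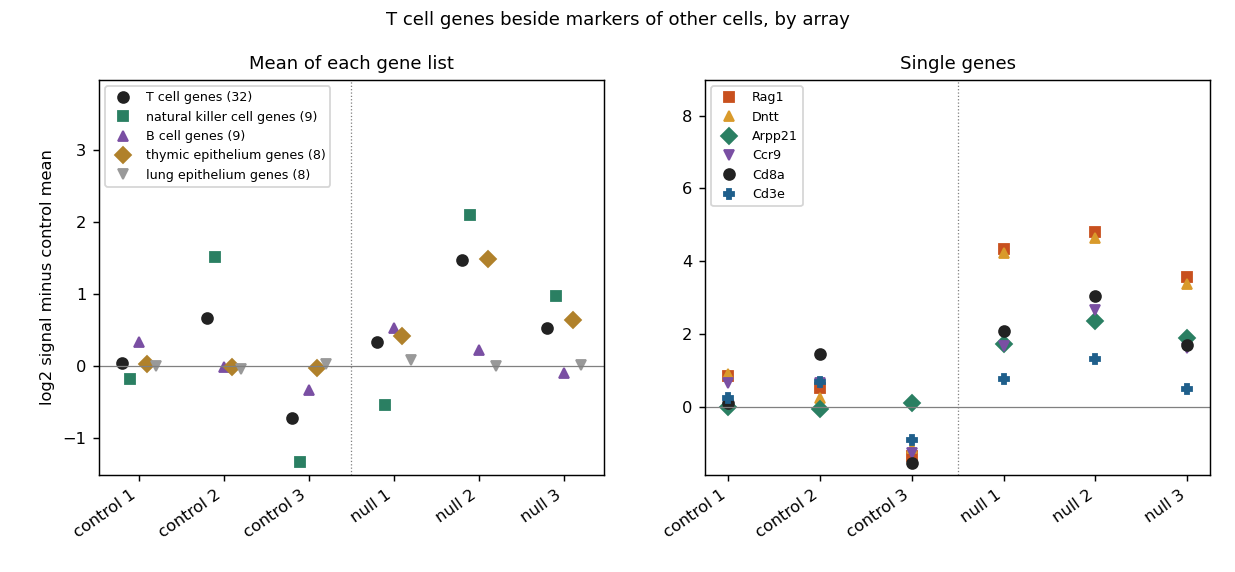
Log2 signal on each array minus the mean of the 3 controls, for the mean of 5 gene lists (left, points set slightly apart) and for 6 single genes (right). The T cell and natural killer cell lists are high in control replicate 2 and null replicate 2 and low in control replicate 3, the lung epithelium list stays near 0, and Rag1, Dntt, Arpp21, Ccr9 and Cd8a are above all controls on each null array.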

How the data were processed

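RNA of 6 whole-lung samples was hybridised to 1-colour Affymetrix arrays. The deposited values are log2 signals that the authors made with RMA, per the submitters' processing notes, whose version no source used here states. Values span 2.36 to 14.88, as log2 signals do. Once sorted, the 6 columns lay within 0.164 of each other throughout; between-array scaling thus preceded deposit and would hide a shift of most genes one way. No pair of arrays was identical. Groups come from the genotype label; replicate numbers are in accession order and pair nothing.

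Of 45101 probe sets, 64 control probe sets were left out. Of the 45037 tested, 34945 had 1 gene symbol in the platform annotation, 932 had several and 9160 are unnamed here. For 34741 of the 34945 the Entrez identifier is in the RefSeq table of GRCm38.p6, with 0 symbols changed. The 18193 genes, each by its brightest probe set, were tested in R 4.3.3 by limma 3.58.1 (lmFit, eBayes; two-sided; Benjamini-Hochberg over all genes, threshold 0.05; null minus control), with no filter on dim signal. On simulated data for this comparison over 18193 genes, recovery was 46.3% at a log2 change of 1 (67 genes), 83.6% at 2 (67 genes) and 87.9% at 3 (66 genes), with 10 false calls. The simulated noise was independent between genes, and the changed genes were drawn from all genes, whose median SE was 0.16. The T cell genes had a median SE of 0.45 and many followed the same order of arrays, so these rates are not theirs.

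The T cell genes and all lists were chosen with earlier results of these data known. Named genes were fixed by rule. They were Foxa2, all T cell genes and, from each other list, the genes that passed (at most 4) or else the 2 with the smallest p. For lists of other cells the 2 brightest in controls were named too. Rag1, Rag2, Ptcra, Themis2, Aqp11, Sftpc, Foxn1, Prss16, Ccl25, Aire, Fyn and the promoters of Cd3d, Cd3g and Cd3e were chosen after values were seen. Alternatives were other normalization between arrays, filters on dim signal, variance models, array weights, the title number as a block (statmod 1.5.0), other choices of probe set, other thresholds and leaving out each array; values relative to the CD3 chains were added after the data were seen. Promoters were credited to RefSeq and searched for motifs on both strands.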

Additional observations from a re-analysis of the deposited data

How the results depend on the processing

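No T cell gene had a limma adjusted p under 0.05 in any of the 16 alternative fits, in which 0 to 607 of all genes did, or, with all arrays and the settings reported, an adjusted p under 0.1 or a pass with a minimum of 2-fold. The smallest adjusted p over these fits was 0.0558 (Ctla4, array weights). At 2 decimals the sign turned in 15 of 491 values of single T cell genes, all of genes with no call: Lef1 and Gata3 account for 10, and Cd28, Cd5, Cd6, Slamf1 and Trat1 for 1 each. The median difference kept its sign in each fit, between 0.29 and 1.04, and without each array it was 0.39 to 1.04. Of all genes, 104 passed, and 48 with cyclic loess, 52 of the genes brighter than the median, 607 with array weights, 0 with the title number as a fixed block, 399 with it as a random block, 61 with the probe set of largest variance and 320 at an adjusted p under 0.1; without each array 0 to 249 passed. Where 0 genes passed in these limma fits, 1654 to 2121 had an unadjusted p under 0.05. Of probe sets, 45 passed, and 6 with cyclic loess, 72 with trend and robust settings, 564 with array weights, 0 and 279 with the title number as a fixed and as a random block, and 232 at an adjusted p under 0.1; without each array 0 to 144 passed. The cause of these differences was not tested. Replicate numbers are in accession order and pair nothing; the only number shared across groups, the title number of 1 control and 2 null arrays, was used as the block above. With 3 arrays a group and T cell genes spreading by a median SE of 0.45, differences near the median of 0.80 were not resolved.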

Other observations

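Probe sets that do not stand for their gene gave the same direction in most cases: of 36 dimmer probe sets of the T cell genes, 34 had a higher null mean, and the 2 others were both of Cd247. The dimmer probe set of Cd4 (difference 0.89, SE 0.18) had the smallest adjusted p of the 68 over all probe sets, 0.159 (limma), beside 1.06 (SE 0.39) for the brighter one in the same fit. None of the 68 had an adjusted p under 0.05, beside 0.0999% of all probe sets. Of the T cell genes, 15 had 1 probe set and 17 several.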
